A study of Homo sapiens with 24 samples.

Results

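The 39 HOX genes of human clusters A to D were followed in 4 non-small cell lung cancer (NSCLC) cell lines with and without depletion of PKCδ, and 27 of them were measured by a transcript cluster that names no other gene. HOX genes encode homeodomain transcription factors. They lie in 4 clusters, and their order along a cluster follows the order in which they are expressed from head to tail in the embryo, so that low paralog numbers are anterior and high numbers posterior. In adult epithelium and in carcinomas the set of HOX genes that stays on, the HOX code, differs between sites of origin. Retinoic acid induces HOX genes, Polycomb complexes keep them silent, trithorax proteins keep them active, and the TALE proteins PBX, MEIS and PKNOX bind DNA together with HOX proteins.

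Of the 18417 genes tested, the 27 measured members were HOXA2, all 10 HOXB genes, 7 of the 9 HOXC genes and all 9 HOXD genes. The other 12 were not analysed here, 10 of them in cluster A and 2 in cluster C, HOXC4 and HOXC6, so that HOXA2 alone stands for its cluster. RefSeq gives HOXC5 a start that it shares with HOXC4 and HOXC6, and a signal from RNA common to these genes could not be told apart from HOXC5. Only 7 of the 27 members, HOXA2, HOXB6, HOXB7, HOXB9, HOXC13, HOXD1 and HOXD13, had a mean over the 24 arrays above 5.79, the median of all gene means on the log2 scale. The other 20 lay at or below it. No background level was measured, and levels are compared here between cell lines for the same gene, not between genes.

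The 4 lines were H2009, H441, A549 and H460. Each stably expressed, from a lentivirus, either δ193, an shRNA to the coding region of PKCδ (knock-down), or a scrambled shRNA, δscr (Scrambled), with 3 biological replicates per group and 24 arrays in all. Values are log2 RMA values of Affymetrix Human Gene 1.0 ST arrays, on which a difference of 1 is a 2-fold change. PKCδ was depleted on these arrays with δ193 alone, and what follows from the loss of PKCδ cannot be told apart from what this shRNA may do to other RNAs. In these bulk samples, fewer cells that express a gene and less RNA per cell cannot be told apart either.

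PRKCD, which encodes PKCδ, fell with knock-down in every line: it fell by 2.25 log2 units in H2009 and fell by 2.40 in H441, and it fell by 2.03 in H460 and fell by 1.26 in A549. The epithelial keratin gene KRT8 averaged 11.8 to 12.5 in the Scrambled groups, and the leukocyte gene PTPRC 2.66 to 2.79. The lung markers NKX2-1, SFTPB, SFTPC and SCGB1A1 all averaged below the median of gene means in the Scrambled groups of all 4 lines, and EPCAM averaged 11.2 in H2009 but 5.45 in H460, 5.89 in H441 and 4.71 in A549. H441 is known for NKX2-1 and SFTPB, which averaged 4.21 and 4.01 in its Scrambled group, so the arrays labelled H441 go against what is known of that line. The labels were kept, and H441 below means the arrays labelled so. Without these arrays the HOX calls numbered 3 in H2009, 5 in H460 and 3 in A549, where all arrays gave 3, 4 and 1, and 4 HOX genes differed among the Scrambled lines in place of 5. Of 17 measured markers of lung epithelium, 4 fell in H441 (NAPSA, CDH1, KRT19 and MUC1, beside 7.22% of all genes), FOXA1 fell in A549 (2.58%), KRT19 and GATA6 rose in H460 (2.01%) and none passed in H2009. Of 14 measured markers of mesenchymal, blood and vessel cells, CDH2 and PECAM1 fell in H441 (beside 7.22% of all genes) and none passed in H2009. In A549 CDH2 rose (2.05%) and CD14 fell (2.58%), and in H460 CD14 rose (2.01%) and CDH2 fell (3.44%). With an array left out, the H460 calls were lost in 16 of 24 fits for CD14 and 14 of 24 for CDH2. No marker named for H441 passed with H441 fitted alone, nor did CD14 with A549 fitted alone (adjusted p = 0.0797). The part of these markers in the HOX changes was not tested. The H441 knock-down arrays were the least alike, with correlations of 0.9819 to 0.9901 against at least 0.9918 in every other group. The median SD of the HOX genes was 0.21 in that group, against 0.10 to 0.17 in the others.

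The promoters of 3 genes whose values changed with knock-down are shown here, since HOXA2 fell in every line, HOXC5 rose mainly in H460 and HOXD13 moved in opposite directions in H441 and H460. Each sequence covers 250 bases before to 50 bases after a start site that RefSeq (GRCh38.p14) gives for the gene. For HOXC5 that site is also the start given for HOXC4 and HOXC6. For HOXD13 the site lies inside the annotated gene, which begins upstream at 176087487. They are HOXA2 at chr7:27102634-27102933 on the minus strand, HOXC5 at chr12:54016638-54016937 on the plus strand and HOXD13 at chr2:176092471-176092770 on the plus strand. Capitals mark matches, on either strand, to TATAAA (the TATA box), CCAAT (the motif of NF-Y), TGATTNAT (a site type of HOX with PBX) and CACGTG (an E-box).
HOXA2: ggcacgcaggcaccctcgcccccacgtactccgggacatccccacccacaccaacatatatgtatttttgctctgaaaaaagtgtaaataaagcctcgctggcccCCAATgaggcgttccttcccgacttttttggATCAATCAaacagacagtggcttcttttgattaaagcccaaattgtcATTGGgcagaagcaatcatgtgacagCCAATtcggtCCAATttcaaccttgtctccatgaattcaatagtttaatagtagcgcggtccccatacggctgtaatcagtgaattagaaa
HOXC5: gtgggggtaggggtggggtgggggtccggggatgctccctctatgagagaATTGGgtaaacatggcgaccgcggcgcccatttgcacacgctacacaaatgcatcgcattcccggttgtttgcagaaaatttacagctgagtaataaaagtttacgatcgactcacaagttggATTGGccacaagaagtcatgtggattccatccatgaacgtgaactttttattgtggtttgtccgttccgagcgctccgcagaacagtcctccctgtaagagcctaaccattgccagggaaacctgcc
HOXD13: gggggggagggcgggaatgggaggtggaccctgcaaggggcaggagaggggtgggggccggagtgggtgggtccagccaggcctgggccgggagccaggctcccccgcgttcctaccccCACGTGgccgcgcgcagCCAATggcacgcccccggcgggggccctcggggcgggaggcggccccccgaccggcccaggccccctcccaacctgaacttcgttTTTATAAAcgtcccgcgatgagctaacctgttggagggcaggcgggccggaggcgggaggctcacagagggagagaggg

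HOXA2 held 4 matches to CCAAT and 1 to TGATTNAT, which lay on the opposite strand 114 bases before the start. TGATTNAT occurred in 2.8% of the 35116 RefSeq promoters of this length and in 2 of the 11 measured HOX genes with an entry, HOXA2 and HOXD11. HOXC5 held 2 matches to CCAAT, a motif found in 34.6% of all promoters and in 9 of the 11 HOX promoters. HOXD13 held TATAAA with its first base 27 bases before the start, overlapping a match on the opposite strand, together with 1 CCAAT and the palindrome CACGTG. The first of these was found in 11.5% of all promoters and in no other of the 11, and CACGTG in 7.3% of all and in 5 of the 11. The GC content was 46.3% in HOXA2, 51.7% in HOXC5 and 74.0% in HOXD13, against a median of 58.7% over all promoters. These matches describe the sequences and no binding was measured. Of the 5 members that changed with knock-down, HOXB9 and HOXC13 are named only.

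The first question was which HOX code each line carried at baseline, in Scrambled cells. The lines differed in 5 of the 27 members (18.5%), HOXA2, HOXB8, HOXC9, HOXC13 and HOXD13, and 29.4% of all genes tested passed the same test. It required an adjusted p under 0.05 in the limma F-test over the Scrambled groups and at least 1 log2 unit between the highest and lowest line. Without that requirement on size, 20 of the 27 members passed, so that most HOX differences between lines were smaller than 2-fold. Between single lines, the members that differed numbered 3 for H2009 and H441 (14.6% of all genes), 2 for H2009 and A549 (11.1%), 2 for H2009 and H460 (8.96%), 3 for H441 and A549 (14.9%), 1 for H441 and H460 (9.34%) and 2 for A549 and H460 (9.49%). The ranges ran from 0.13 log2 units for HOXD4 to 1.49 for HOXC9.

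**Figure D1:**
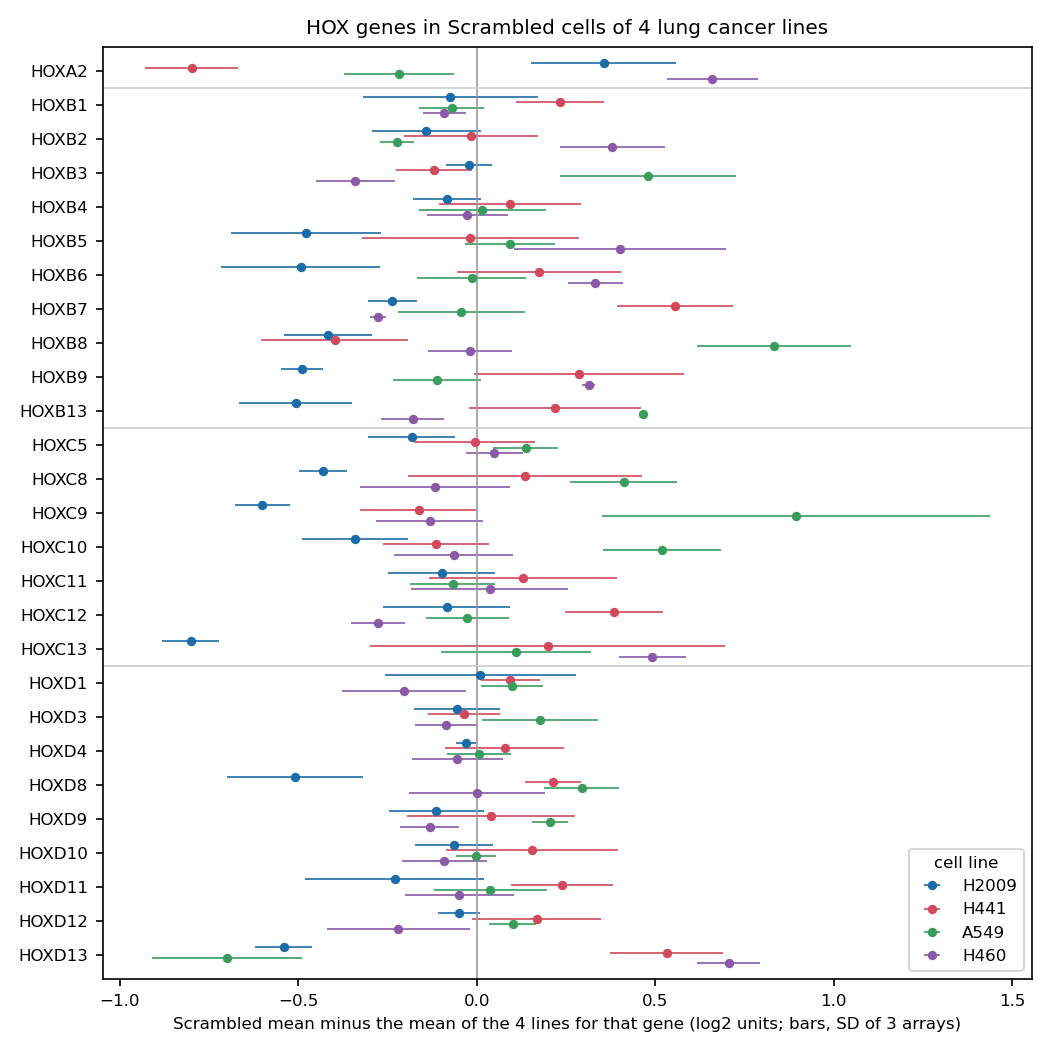
Baseline HOX code. Each point is the mean of 3 Scrambled arrays of a cell line (colour) minus the mean of the 4 line means for that gene, in log2 units, with the SD as a bar, and the genes run down the page by cluster and paralog number. A549 stands to the right for HOXB8 and HOXC9, H2009 to the left for HOXC13, and H441 and H460 to the right of H2009 and A549 for HOXD13.

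A549 carried the highest levels of HOXC9 and HOXB8, genes that pattern the trunk in the embryo. HOXC9 was 6.48, 6.56 and 5.59 on the 3 Scrambled arrays of A549, against 4.64 to 4.79 in H2009, 5.0 to 5.33 in H441 and 5.04 to 5.34 in H460. Every A549 array thus lay above every array of the other lines, with replicate 3 the lowest of the A549 arrays. The difference was 1.49 to H2009 (adjusted p = 1.15e-07), 1.06 to H441 (1.35e-05) and 1.03 to H460 (2.92e-05), and H441, H460 and H2009 lay within 0.47 of one another. Without A549 Scrambled replicate 1 or 2 the differences to H441 and H460 were 0.85 to 0.92, under 1 log2 unit. They also fell under 1 without H441 Scrambled replicate 1 (0.98, to H441) and without H460 Scrambled replicate 2 (0.95, to H460).

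HOXB8 averaged 5.57 ± 0.22 (SD, n = 3) in A549, against 4.72 ± 0.12 in H460, 4.34 ± 0.21 in H441 and 4.32 ± 0.12 in H2009. A549 was higher than H441 by 1.23 (adjusted p = 7.87e-07) and higher than H2009 by nearly the same (8.25e-07), and the 0.85 to H460 missed the size threshold. No difference among H460, H441 and H2009 passed (adjusted p at least 0.0574).

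HOXD13, the most posterior gene of cluster D, split the lines into 2 pairs. It averaged 6.81 ± 0.09 in H460 and 6.64 ± 0.16 in H441, against 5.57 ± 0.08 in H2009 and 5.41 ± 0.21 in A549 (SD, n = 3 each). All 4 comparisons across the pairs passed, with differences of 1.07 to 1.40. Within the pairs, H441 minus H460 was -0.17 (adjusted p = 0.245) and H2009 minus A549 was 0.16 (0.308). Without H441 Scrambled replicate 2 the difference between H2009 and H441 was 0.99 in size and under the threshold.

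HOXA2, which patterns the hindbrain and the branchial arches, was ordered H460 (7.20 ± 0.13), H2009 (6.89 ± 0.20), A549 (6.32 ± 0.15) and H441 (5.74 ± 0.13). The difference between H460 and H2009 did not pass (adjusted p = 0.142), and each was higher than H441 by at least 1, with 1.46 for H460 (5.04e-08) and 1.15 for H2009 (1.15e-06). HOXC13, a gene of hair and nail differentiation, was lowest in H2009, at 5.63 ± 0.08, against 6.93 ± 0.09 in H460, 6.63 ± 0.50 in H441 and 6.54 ± 0.21 in A549. H2009 was lower than H460 by 1.29 (4.26e-07) and lower than H441 by 1.0 (1.03e-05). It was also lower than A549, by 0.91 (4.5e-05), which missed the size threshold. The difference to H441 fell under 1 log2 unit without H441 Scrambled replicate 1 or 2, or H2009 Scrambled replicate 1 or 2 (0.85 to 0.99). No difference among H460, H441 and A549 passed (adjusted p at least 0.0563).

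The next question was which HOX genes responded to PKCδ knock-down. A gene passed when its adjusted p was under 0.05 and its change at least 0.32 log2 units, the fold that the study's methods used. HOXA2 fell in all 4 lines, HOXB9 rose in H2009 and H441, HOXC5 rose in H460 and H2009, HOXC13 fell in H441 and H460, and HOXD13 rose in H441 and fell in H460. These 5 of 27 members (18.5%) passed in at least 1 line, near the 22.5% of all genes that did so. All 5 (18.5%) passed in at least 2 lines, where 5.42% of all genes did so. Of these 5, only HOXA2 kept all its calls with each line fitted alone. The calls lost were HOXB9, HOXC13 and HOXD13 in H441 and HOXC5 in H2009, each 1 of the 2 calls of its gene. By line, 3 members passed in H2009 (4.91% of all genes did), 4 in H441 (14.3%), 1 in A549 (4.63%) and 4 in H460 (5.45%). Falls made up 1 of these in H2009 (2.25% of all genes fell), 2 in H441 (7.22%), 1 in A549 (2.58%) and 3 in H460 (3.44%). Rises made up 2 in H2009 (2.66%), 2 in H441 (7.09%), none in A549 (2.05%) and 1 in H460 (2.01%). Knock-down and Scrambled arrays did not overlap for 6 members in H2009 (25.9% of all genes), 3 in H441 (21.3%), 5 in A549 (24%) and 7 in H460 (34.2%).

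**Figure D2:**
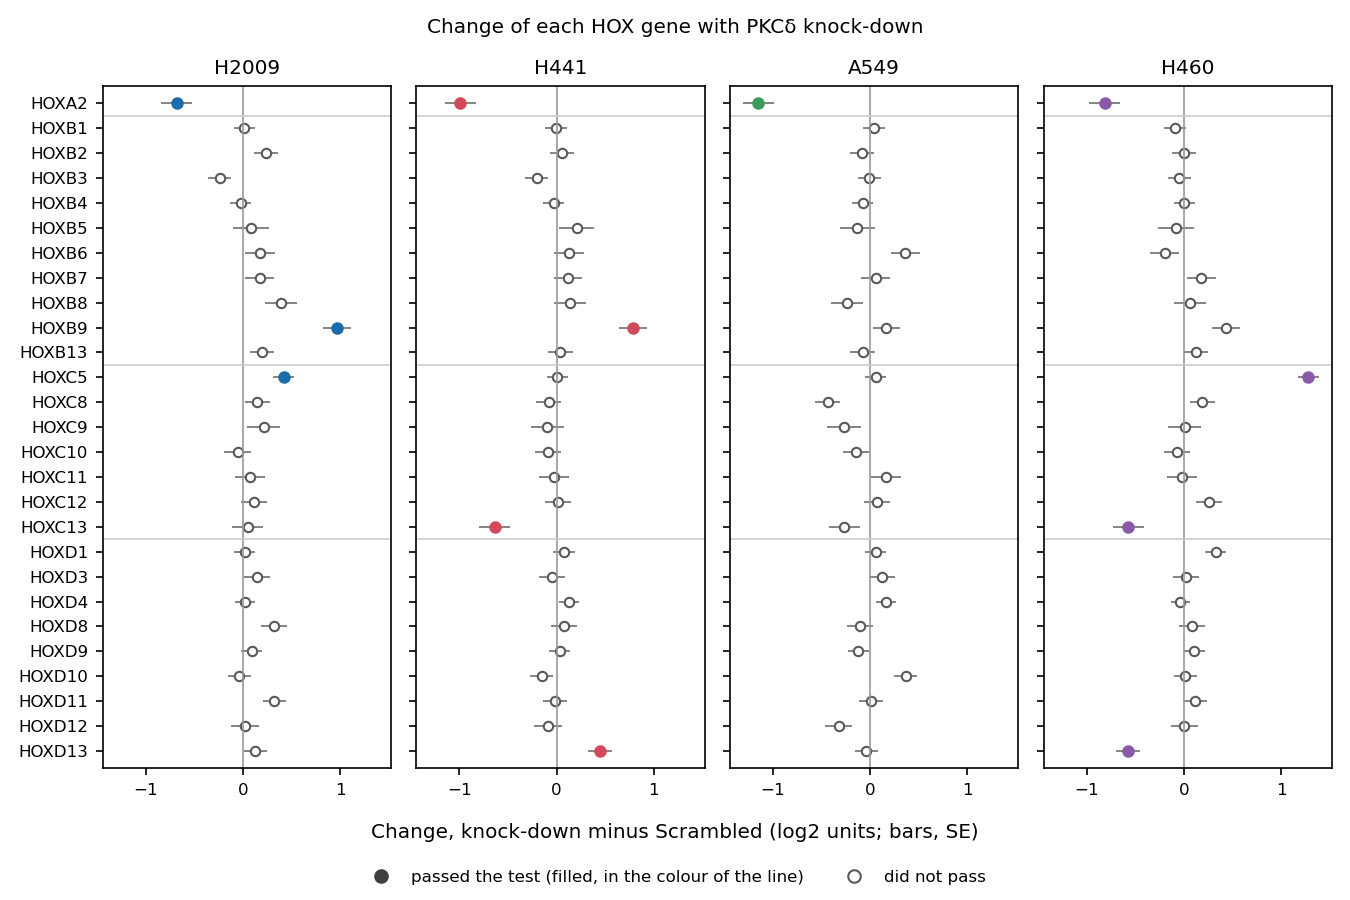
Change with knock-down. Each point is knock-down minus Scrambled in log2 units for a HOX gene, with its SE, in a panel per cell line, filled where the gene passed the test. HOXA2 lies left of 0 in all 4 panels, and most other genes lie within 0.45 of 0.

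HOXA2 was the HOX gene with a fall in every line, and 0.157% of all genes (29 of 18417) fell in all 4 lines. It was 6.45, 5.93 and 6.26 in H2009 knock-down cells, against 7.13, 6.75 and 6.80 in Scrambled cells. In H441 it was 4.33, 4.80 and 5.12 in knock-down cells, against 5.59, 5.77 and 5.85 in Scrambled cells. In A549 it was 5.37, 5.14 and 5.0 with knock-down and 6.19, 6.49 and 6.27 with Scrambled shRNA. Knock-down and Scrambled arrays did not overlap in these lines, nor in H460, where the values were 6.35, 6.37 and 6.43 with knock-down and 7.19, 7.33 and 7.08 with Scrambled shRNA. The change was -1.15 in A549 (adjusted p = 5.17e-05), -0.99 in H441 (0.000115), -0.81 in H460 (0.00201) and -0.68 in H2009 (0.00988), each with an SE of 0.16, or folds of 1.61 to 2.22. None of the 6 differences between lines in this change passed (adjusted p at least 0.345), and the widest, H2009 minus A549, was 0.47 with a 95% confidence interval of 0.00 to 0.93. In H2009 the call was lost without Scrambled replicate 1 (-0.57, adjusted p = 0.0796) or knock-down replicate 2 (-0.54, 0.0873). By the methods' t-test with Benjamini-Hochberg adjustment HOXA2 did not pass in H2009 (adjusted p = 0.193), H441 (0.233) or A549 (0.0914). In knock-down cells the order of the highest and lowest line was as in Scrambled cells, with H460 highest and H441 lowest.

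**Figure D3:**
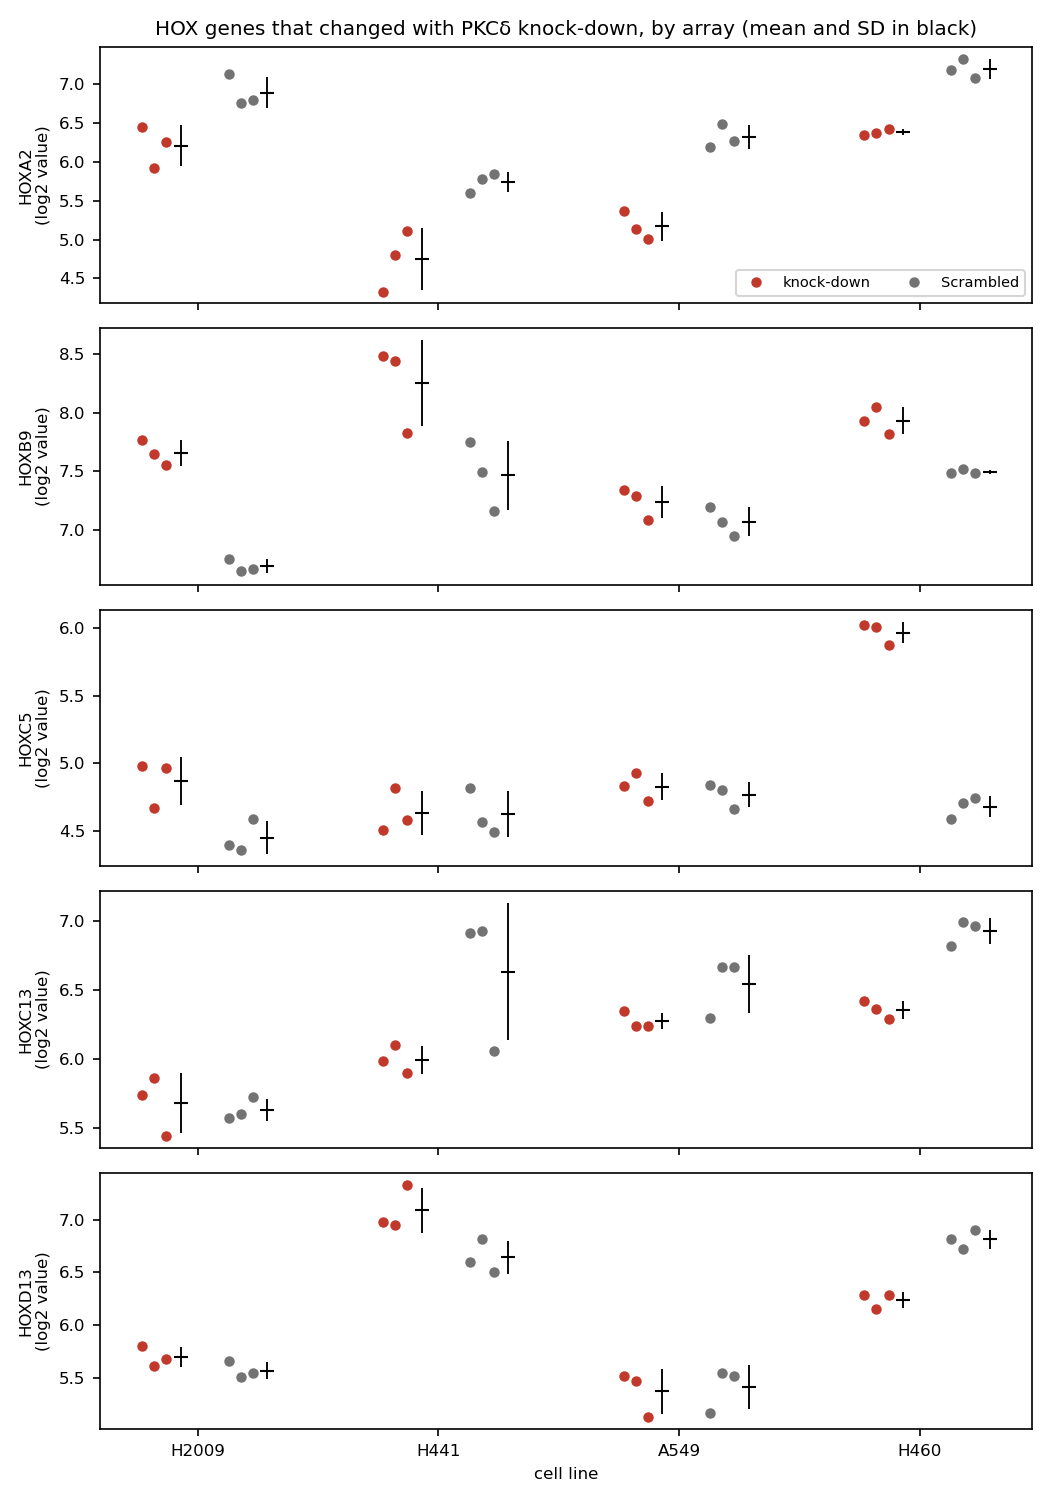
The 5 HOX genes that changed. Each point is the log2 value of an array, red for knock-down and grey for Scrambled cells, with the mean and SD in black, for the 4 lines on the horizontal axis. HOXA2 is lower with knock-down in all lines, and the HOXC5 arrays of H460 knock-down cells, at 5.87 to 6.02, lie above all others.

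HOXB9, a thoracic-level gene of cluster B, rose in H2009 and H441. It was 7.77, 7.65 and 7.55 in H2009 knock-down cells, against 6.76, 6.65 and 6.67 in Scrambled cells. In H441 it was 8.48, 8.44 and 7.83 in knock-down cells, against 7.75, 7.49 and 7.16 in Scrambled cells. The groups did not overlap in either line, and in each the knock-down group was higher. The change was 0.96 in H2009 (SE 0.14, adjusted p = 0.000159) and 0.78 in H441 (0.000474). In H460 HOXB9 was 7.93, 8.05 and 7.82 with knock-down and 7.48, 7.52 and 7.49 with Scrambled shRNA, groups that did not overlap, but the change of 0.44 did not pass (adjusted p = 0.0809). In A549 it was 7.34, 7.29 and 7.08 with knock-down and 7.19, 7.07 and 6.95 with Scrambled shRNA, and the groups overlapped (change 0.17, adjusted p = 0.709).

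The change of HOXB9 was larger in H2009 than in A549 by 0.80 (adjusted p = 0.0268), and no other difference between lines in its change passed. Between single lines, the change differed for 1 member between H2009 and A549 (3.51% of all genes), 2 between H2009 and H460 (4.21%), 2 between H441 and H460 (4.83%) and 2 between A549 and H460 (4.63%), and for none between H2009 and H441 (7.12%) or H441 and A549 (9.38%). Fitted on its 6 arrays alone, H441 lost the HOXB9 call (adjusted p = 0.0807), as it did by the methods' t-test with that adjustment (0.351). The neighbours of HOXB9 on the B cluster did not pass: HOXB8 changed by 0.39 in H2009 (adjusted p = 0.218) and 0.13 in H441 (0.648), and HOXB13 passed in no line.

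HOXC5, a central gene of cluster C, had the largest change of any measured HOX gene, in H460. It was 6.02, 6.0 and 5.87 in H460 knock-down cells, against 4.59, 4.71 and 4.74 in Scrambled cells. The change of 1.28 (SE 0.11, adjusted p = 2.5e-08), a fold of 2.43, put H460 above every other group for this gene, although its Scrambled cells did not stand apart. In H2009 HOXC5 was 4.98, 4.67 and 4.97 with knock-down and 4.40, 4.36 and 4.59 with Scrambled shRNA. That change of 0.42 (adjusted p = 0.0206) was lost when any of 4 H2009 arrays was left out (adjusted p up to 0.105) when H2009 was fitted alone (0.0645) and by the methods' t-test with adjustment (0.206). H441 (0.01, adjusted p = 0.971) and A549 (0.06, 0.91) showed overlapping groups, with knock-down and Scrambled arrays between 4.49 and 4.93 in both lines.

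The change of HOXC5 in H460 differed from that in each other line: H441 minus H460 was -1.27 (adjusted p = 1.7e-05), A549 minus H460 was -1.22 (1.59e-05) and H2009 minus H460 was -0.86 (0.00105). Each of these 3 differences passed with any array left out. Of the other measured C cluster genes, HOXC8 to HOXC12 did not pass in H460. HOXC8 changed by 0.19 there (adjusted p = 0.52), HOXC9, HOXC10 and HOXC11 by -0.07 to 0.01 and HOXC12 by 0.26.

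HOXC13, at the posterior end of the same cluster, fell in H460 and H441. In H460 it was 6.42, 6.36 and 6.29 with knock-down and 6.82, 6.99 and 6.96 with Scrambled shRNA, groups that did not overlap. The change of -0.57 (SE 0.16, adjusted p = 0.0343) did not pass when any of the 6 H460 arrays was left out (adjusted p up to 0.135). In H441 HOXC13 was 5.99, 6.10 and 5.89 with knock-down and 6.91, 6.92 and 6.06 with Scrambled shRNA, so that Scrambled replicate 3 lay among the knock-down arrays. The change of -0.64 (adjusted p = 0.00707) did not pass without Scrambled replicate 1 (-0.50, 0.055) or 2 (-0.49, 0.0549), or with H441 fitted alone (0.171), nor by the methods' t-test, which in H441 gave an unadjusted p of 0.095. HOXC13 changed by -0.27 in A549 (adjusted p = 0.496) and 0.05 in H2009 (0.936), and no difference between lines in its change passed (adjusted p at least 0.0689).

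HOXD13 moved in opposite directions in H441 and H460, the lines that held the most of it at baseline, and 1.29% of all genes passed in opposite directions in any pair of lines. In H441 it was 6.98, 6.95 and 7.33 with knock-down and 6.60, 6.81 and 6.51 with Scrambled shRNA. In H460 it was 6.28, 6.15 and 6.28 with knock-down and 6.81, 6.72 and 6.90 with Scrambled shRNA. Neither pair of groups overlapped, and the knock-down arrays were the higher in H441 and the lower in H460. The change was 0.45 in H441 (SE 0.12, adjusted p = 0.0128) and -0.58 in H460 (0.00448), and their difference was 1.02 (95% confidence interval 0.67 to 1.38, adjusted p = 0.0011). The difference between these lines passed with any array left out. The rise in H441 did not pass without Scrambled replicate 3 (0.38, adjusted p = 0.0616) or knock-down replicate 3 (0.33, 0.0715), or with H441 fitted alone (0.174), nor by the methods' t-test with adjustment (0.345).

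In H2009 and A549, the lines low in HOXD13, the groups overlapped and the changes were 0.13 (adjusted p = 0.695) and -0.04 (0.956). With knock-down H441 was the line with the highest HOXD13, where in Scrambled cells it was H460.

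Along the clusters the changes that passed followed no common direction. In H2009 the median change was 0.18 in cluster B, 0.11 in cluster C and 0.09 in cluster D, above that of all genes. In the other lines the medians of these clusters ran from -0.15 to 0.09. The median change of all 27 members was 0.11 in H2009 (0.01 over all genes), 0.01 in H441 (0.00), -0.04 in A549 (0.01) and 0.01 in H460 (0.01). By position, the 6 anterior members (paralogs 1 to 3) had 1 that fell in each line, HOXA2. The 9 central members (paralogs 4 to 8) had 1 that rose in H2009 and 1 in H460, HOXC5 in both. The 12 posterior members (paralogs 9 to 13) had 3 that passed in H441, where 2 rose and 1 fell, 2 that fell in H460, 1 that rose in H2009 and none that passed in A549. The 5 members that passed came from all 4 clusters.

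The other 22 members passed in no line. Their changes ran from -0.24 (HOXB3) to 0.39 (HOXB8) in H2009, -0.20 (HOXB3) to 0.21 (HOXB5) in H441, -0.44 (HOXC8) to 0.37 (HOXD10) in A549 and -0.20 (HOXB6) to 0.33 (HOXD1) in H460. The nearest to the threshold was HOXC8 in A549, a gene of the thoracic region, at 5.74 ± 0.16 with knock-down and 6.18 ± 0.15 with Scrambled shRNA (SD, n = 3 each, adjusted p = 0.0517). It passed in A549 in several other settings.

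Genes that act on the HOX clusters were listed with earlier results of these data known, and are described by counts. In the retinoic acid list, 15 of 18 genes were measured. Of these, 7 passed in at least 1 line, all as falls, where 22.5% of all genes passed in at least 1 line in either direction. H441 had 6 such falls (7.22% of all genes fell there), H460 had 4 (3.44%), A549 had 3 (2.58%) and H2009 had 2 (2.25%). None rose. With H441 fitted alone its falls numbered 4, and without the H441 arrays 1 gene of the list rose in H2009. The median change of the list was -0.09 to 0.00 by line, where that of all genes was 0.00 to 0.01.

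**Figure D4:**
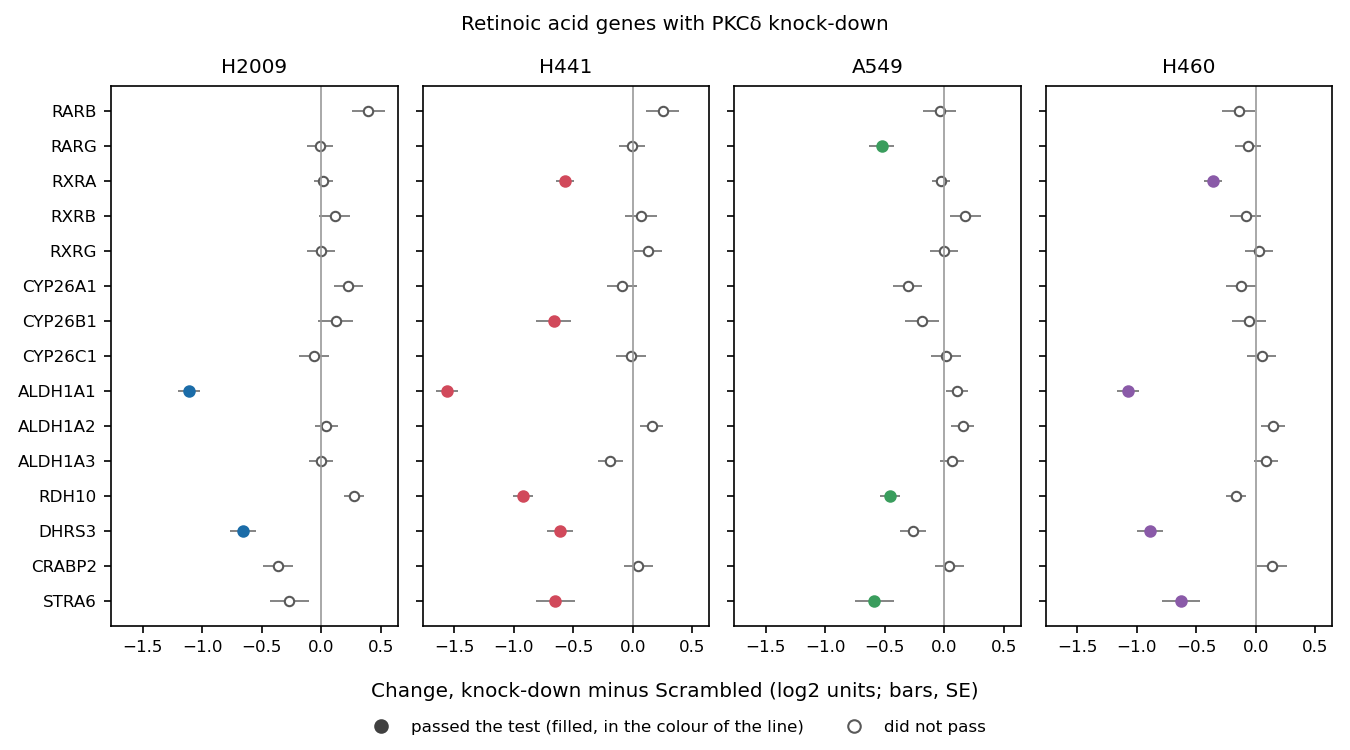
Retinoic acid genes. Each point is knock-down minus Scrambled in log2 units with its SE for a measured gene of the list, in a panel per line, filled where the gene passed the test. ALDH1A1 lies below -1 in H2009, H441 and H460 but not in A549, and no filled point lies right of 0.

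ALDH1A1, an enzyme that makes retinoic acid from retinal, was 7.56, 7.21 and 7.35 in H2009 knock-down cells, against 8.56, 8.46 and 8.44 in Scrambled cells. It changed by -1.11 there (adjusted p = 6.99e-08), by -1.56 in H441 (1.04e-10) and by -1.07 in H460 (4.03e-08), and in A549, which held the most of it, it was 12.2 to 12.3 with knock-down and 12.1 to 12.2 with Scrambled shRNA. DHRS3, which turns retinal back to retinol, fell in the same 3 lines, by 0.66 in H2009, 0.61 in H441 and 0.89 in H460, though not with H441 fitted alone (adjusted p = 0.079). STRA6, the cellular receptor for retinol uptake, fell in H441 by 0.65, in A549 by 0.59 and in H460 by 0.63. In A549 the STRA6 fall was 0.38 without Scrambled replicate 1 (adjusted p = 0.253), and it also did not pass when any 1 of the 3 knock-down arrays was left out. In H460 it did not pass without Scrambled replicate 3, knock-down replicate 1 or knock-down replicate 3 (adjusted p up to 0.147). RDH10, which makes retinal from retinol, fell in H441 by 0.92 and in A549 by 0.46. The list thus held falls both of genes that make retinoic acid and of genes that limit it.

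Of the TALE partners, 7 of 9 were measured. MEIS2, a partner of HOX proteins on DNA, rose by 0.42 in A549 (adjusted p = 0.00478, beside 2.05% of all genes that rose) and fell by 0.49 in H460 (0.00111, beside 3.44% that fell). PBX3 rose by 0.38 in H460 (0.0464, beside 2.01%), a call lost in 15 of 24 fits that left out an array. No other measured member passed. Of 26 measured Polycomb genes, 6 rose in H441 (7.09% of all genes did), among them RYBP by 0.42 and PCGF1 by 0.41, and none passed there with H441 fitted alone. Without H441 knock-down replicate 2 PCGF1 rose by 0.27 and did not pass. RING1 rose by 0.35 in A549 (adjusted p = 0.045, beside 2.05%), a call lost in 16 of the 24 fits that left out an array and with A549 fitted alone. No Polycomb gene fell. In the trithorax list (17 of 18 measured), DOT1L, the H3K79 methyltransferase, rose in H2009 (0.48, beside 2.66% of all genes that rose) and H441 (0.65, beside 7.09%), and KDM6A in H2009 (2.25% of all genes fell), ASH2L in H460 (3.44%) and MLLT1 in H441 (7.22%) fell. Calls were lost for DOT1L in H2009 without knock-down replicate 1 (adjusted p = 0.063) and for MLLT1 with H441 fitted alone (0.154). None of the 10 CTCF and cohesin genes and none of the 6 ParaHox and CDX genes passed in any line, where 22.5% of all genes passed in at least 1.

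Of the noncoding RNAs of the HOX clusters, 1 of 6 measured fell in H460 (3.44% of all genes did) and in A549 (2.58%). HOXA-AS2, an antisense RNA of the A cluster, was 4.77, 4.89 and 4.72 in H460 knock-down cells, against 5.39, 5.31 and 5.59 in Scrambled cells (change -0.64, adjusted p = 0.00177). It also fell by 0.43 in A549, with overlapping groups (0.0443, lost in 14 of 24 fits that left out an array), and did not pass in H441 (-0.15) or H2009 (-0.07). Of the 22 measured genes that flank the clusters, SKAP2, an adaptor gene beside cluster A, fell by 1.07 in H441 (adjusted p = 1.83e-07) and 0.67 in H460 (0.000187). In H441 5 flanking genes fell, beside 7.22% of all genes, and in H460 only SKAP2 did, beside 3.44%. Among the 5 in H441, JAZF1 (adjusted p = 0.14), CBX5 (0.308) and ATF2 (0.192) did not pass with H441 fitted alone. SNX10, further out on the same side as SKAP2, rose by 0.64 in H2009 (0.000589). It was the only flanking gene that passed there, beside 2.66% of all genes that rose. In A549 only TTLL6 passed, with a rise of 0.41 (2.05% of all genes rose), a call lost in 3 of 24 fits that left out an array.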

How the data were processed

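Total RNA was profiled on 24 Affymetrix Human Gene 1.0 ST arrays, 3 per group. The deposited log2 values were made by the authors with Affymetrix Power Tools and RMA, which corrects background, quantile-normalizes arrays and summarizes probes. RMA compresses differences of dim probes, and the number of arrays limits the precision. The sources used here give no versions for them.

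Symbols came from the platform annotation, updated by Entrez ID for 19429 of 19460 transcript clusters with 1 symbol. Clusters with several symbols (1754) or none (12038) were left out. For a gene with several clusters, the one with the highest mean was used, which gave 18417 genes. limma 3.58.1 (R 4.3.3) was fitted to all arrays with a coefficient for each of the 8 groups, with Benjamini-Hochberg adjustment over all genes in each comparison. The SE of a gene thus came from 1 spread shared by the 8 groups, although the H441 knock-down arrays varied most. Promoters came from RefSeq. The scripts were tested on simulated data. A planned comparison between groups of lines is not reported here.

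Genes named were PRKCD, every HOX gene that passed, HOX genes that set a line at least 1 log2 unit apart from each other line at baseline, and at most 4 called members of a list. Other genes were chosen after their values were seen. The HOX members, the 10 other lists and the tests were chosen with earlier results of these data known. The lists of lung and of other cell markers had 17 of 18 and 14 of 15 genes measured. Tried as alternatives were other tests, normalizations, filters, thresholds, a replicate block and arrays left out; those for the other lists were added after their values were seen.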

Additional observations from a re-analysis of the deposited data

Results flagged for a closer look

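The results below were singled out because the change with knock-down differed between lines by a test of the difference itself, with limma and Benjamini-Hochberg adjustment over all genes. A difference is the change in the first-named line minus that in the other, in log2 units, and no explanation was tested.

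HOXC5 differed between H460 and each other line, by -1.27 for H441 (adjusted p = 1.7e-05), -1.22 for A549 (1.59e-05) and -0.86 for H2009 (0.00105), each minus H460.

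HOXD13 differed by 1.02 between H441 and H460 (adjusted p = 0.0011), where its changes ran in opposite directions, and by 0.70 between H2009 and H460 (0.0185). The second did not pass without H460 Scrambled replicate 3, H460 knock-down replicate 2 or H2009 knock-down replicate 1 (0.65 to 0.66, adjusted p up to 0.0576).

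HOXB9 differed by 0.80 between H2009 and A549 (adjusted p = 0.0268), a call that was lost with any of 7 arrays left out (0.72 to 0.80, adjusted p up to 0.0847): A549 Scrambled replicates 1 and 2, A549 knock-down replicate 3, H2009 Scrambled replicates 2 and 3, and H2009 knock-down replicates 1 and 2.

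HOXC8 differed by -0.63 between A549 and H460. Its adjusted p, 0.05 when rounded, lay just under the threshold, and the call was lost in 18 of the 24 fits that left out an array (adjusted p up to 0.17), among them 10 of the 12 without an array of these lines.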

How the results depend on the processing

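No result changed direction under any alternative. Of 182 recomputed counts of HOX genes, 161 stayed within 1.5 times the main count. Counts of HOX genes changed with knock-down moved as follows. The methods' t-test gave 5 in A549 unadjusted, and after Benjamini-Hochberg 1 in H2009, 0 in H441 and 0 in A549, which ended the calls of HOXA2 in all 3, HOXC5 in H2009 and HOXB9, HOXC13 and HOXD13 in H441. Each line fitted alone gave 1 in H441. In A549 the count was 3 without the H441 arrays (added after the values were seen), 3 with array weights, 2 with equal array medians and 2 with a further quantile normalization. The added calls were HOXC8 and, in the first pair, HOXD10. A minimum fold of 1.5 gave 2 in H460. Among the Scrambled lines, 3 HOX genes differed when only genes above the median were kept, 20 with no minimum difference and 0 with a minimum of 2 log2 units.

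With each array left out in turn, the count was 1 to 4 in H2009, 3 to 4 in H441, 1 to 2 in A549, 3 to 5 in H460 and 5 to 6 among the Scrambled lines. The H2009 count of 1 came without H2009 Scrambled replicate 1, which lost HOXA2 and HOXC5. Of the alternatives for single genes, 32 ended a call, those of HOXC13 in H460, HOXC13 and HOXD13 in H441 and HOXC5 in H2009 most often. Without the H441 arrays the HOXA2 range among Scrambled lines was 0.88. HOXD13 in H441 was 0.35 with array weights (adjusted p = 0.0613). Same-numbered arrays correlated at -0.0854 to 0.2844 in their deviations, and differently numbered arrays of a line at -0.2917 to 0.1743. The same-numbered arrays of H2009 correlated at 0.2844, 0.1599 and 0.0955. Whether the numbers pair the arrays cannot be told from these values, and the main model did not pair them. With a replicate block the counts were 3, 4, 1 and 5 in H2009, H441, A549 and H460, and 5 among the Scrambled lines. No background was measured, so for the 20 members at or below the median a change may be compressed, to a degree not known here.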
